A study of Bos taurus with 9 samples.

Results

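BEFs are bovine ear fibroblasts, the starting cells of a chemical conversion into adipocyte-like cells. The samples described here are the 3 BEFs samples of day 0, of 9 samples in the series, and were chosen by their label alone. The labels call them fibroblasts, wild type, titled control. They had grown out of pieces of the ear margin and had been passaged in culture before the experiment. A treatment label on all samples of the series, day 0 included, reads reprogramming. No breed, age or number of animals was given, and nothing says that the 3 samples came from separate cultures or animals, so the spread between them may be technical. The other samples, taken on days 3 and 6 of exposure to RepSox, VPA and TTNPB, were not compared here. Of these compounds RepSox is an inhibitor of TGF-beta receptor signalling, VPA (valproic acid) one of histone deacetylases, and TTNPB a retinoid that acts on retinoic acid receptors.

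Fibroblasts make and remodel the extracellular matrix of connective tissue. In culture many of them take on a myofibroblast state, in which smooth muscle actin and other contractile proteins accumulate. Fibroblasts of different body sites keep part of the positional code of the embryo, above all the HOX code. Adipocytes arise from related mesenchymal cells when CEBPB and CEBPD switch on PPARG and CEBPA, which then drive the genes of fat storage.

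Expression was read as FPKM, fragments scaled to the length of the transcript and the size of the library, which allows levels to be compared between genes. The expected counts of the samples summed to 21819170, 24071580 and 22948673. A gene was called expressed at an FPKM of at least 1 in each of the 3 samples and silent at an FPKM under 0.1 in each. Of 21512 genes, 10999 (51.1%) were expressed, 7399 (34.4%) were silent and 3114 lay between. No count was found in any sample for 5482 genes (25.5%), of which 3 counts, or 0.125 to 0.137 CPM, is the level that a count of 0 still allows. This limit covers counting error only. The median of all genes was 1.42 FPKM and that of the expressed genes was 10.8 FPKM. Lists of genes are described below by their counts against these shares, with no test.

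The 4 markers given for these cells were read first, ACTA2 and MKI67 among them for myofibroblast and proliferation state. Their levels alone do not check the label. VIM (NCBI Gene 280955), the intermediate filament protein of mesenchymal cells, had the highest level of all genes, at 4992, 4947 and 5678 FPKM. COL1A1 (NCBI Gene 282187), the main chain of type I collagen, ranked just behind the mitochondrial COX1 at 4690, 4601 and 4295 FPKM. ACTA2 (NCBI Gene 515610), the smooth muscle actin of myofibroblasts, ranked 11th at 3039, 2969 and 2506 FPKM. MKI67 (NCBI Gene 513220), a protein of dividing cells, stood at 51.4, 54.5 and 48.9 FPKM. The 3 samples thus lay close together in each marker, with the third sample highest in VIM and lowest in the other 3.

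The most abundant genes coded for matrix, cytoskeleton, ribosomes and mitochondria. In order of mean FPKM they began with VIM, the mitochondrial COX1, COL1A1, ACTG1, COL1A2, FN1, SPARC, S100A4, ACTB and THBS1, with means from 5206 down to 2876 FPKM. ACTA2, RPLP1, COL6A1, RPLP0, GAPDH, TMSB4X, EEF1A1, COX2, COL6A2, RPS2, TUBA1B, COL3A1, TIMP1, RPSA and BGN followed and completed the first 25. The first 10 genes held 8.57%, 8.58% and 8.55% of the summed FPKM, and the first 100 held 33.6%, 33.3% and 33.3%. Means of at least 1000 FPKM were reached by 53 genes, of at least 100 by 625 and of at least 10 by 5787. The 295 most abundant genes made up 50% of the summed mean FPKM.

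By function, the 81 genes of ribosomal proteins took the largest share of the groups summed here, at 13.8% ± 0.15 (SD, n = 3) of the FPKM, and held 42 of the first 100 places. The 179 matrix genes took 9.83% ± 0.2 (SD, n = 3) and held 15 of those places. Contractile and cytoskeletal actin genes took 4.77% ± 0.071 (SD, n = 3), and the 13 mitochondrially encoded genes 3.21% ± 0.2 (SD, n = 3). The 83 cell cycle genes took 0.644% ± 0.014 (SD, n = 3), with none in the first 100. FPKM divides by length, so long transcripts weigh less than in counts. The collagen chains, which are long, took 4.05%, 4.04% and 3.87% of the FPKM and 9.05%, 8.97% and 8.56% of the counts.

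**Figure D1:**
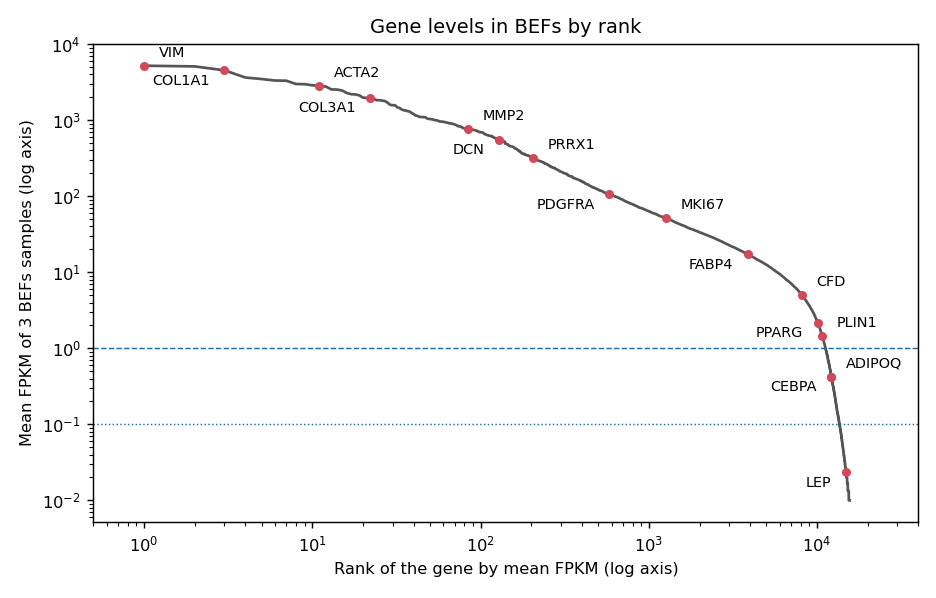
Mean FPKM of the 3 BEFs samples (log axis) against the rank of the gene (log axis), with genes of interest marked. The dashed line is 1 FPKM and the dotted line 0.1 FPKM. VIM, COL1A1 and ACTA2 stand within the first 11 ranks, MKI67 lies near 52 FPKM, and CEBPA, ADIPOQ and LEP lie below 1 FPKM.

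Fibroblast identity genes were expressed for 27 of 30 (90% against 51.1% of all genes), with a median of 312 FPKM. THY1, a surface protein of fibroblasts, stood at 535, 517 and 535 FPKM. PDGFRA, the receptor for PDGF on mesenchymal progenitors, stood at 106, 111 and 101 FPKM, and PDGFRB at 35.7, 34.2 and 46.5 FPKM. The ratio of PDGFRB to PDGFRA was 0.367 ± 0.081 (SD, n = 3). LUM and DCN, small proteoglycans that bind collagen fibrils, had means of 662 and 553 FPKM. The mesenchymal transcription factors ran from PRRX1 at 314, 313 and 320 FPKM through TWIST1 at 13.7, 12.3 and 11.3 FPKM to TWIST2 at 3.66, 3.14 and 4.51 FPKM. FAP, a surface protease of activated fibroblasts, stood at 23.7, 23.4 and 19.8 FPKM.

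The other 3 members were not called expressed. PI16 and DPP4, which mark a progenitor-like fibroblast of the adventitia and fascia, lay between the classes at 1.16 and 0.493 FPKM. TCF21, a transcription factor of visceral and some other fibroblasts, had no count in any sample. Among genes that distinguish the upper (papillary) from the lower (reticular) dermis, 9 of 18 were expressed (50% against 51.1% of all genes). The expressed ones include ACTA2, COL11A1, MGP, CNN1 and MEOX2, while the papillary genes APCDD1 and AXIN2 lay between the classes at 1.42 and 0.223 FPKM and WIF1 was silent at 0.04 FPKM in each sample. Genes of the dermal papilla of the hair follicle were expressed for 5 of 16 (31.2% against 51.1% of all genes). VCAN stood at 59.4 and BMP4 at 31.2 FPKM, while CORIN and NOG were silent and SOX2 stood at 0.64 FPKM.

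Of 44 collagen chains 22 were expressed (50% against 51.1% of all genes) and 12 were silent (27.3% against 34.4%). Their median was 1.33 FPKM, against 1.42 FPKM for all genes. The fibrillar chains led: COL1A2 stood at 3555, 3561 and 3317 FPKM and COL3A1 at 2007, 1998 and 1870 FPKM. Type I collagen holds COL1A1 and COL1A2 chains in a fixed proportion, and their FPKM ratio was 1.3 ± 0.015 (SD, n = 3). COL1A1 over COL3A1, the main chain of type III collagen, gave 2.31 ± 0.022 (SD, n = 3). The 3 samples differed less in both ratios than in the levels. The beaded-filament chains of type VI had means of 2538 FPKM for COL6A1, 2126 for COL6A2 and 788 for COL6A3. COL5A2 and COL5A1, which set fibril diameter, had 835 and 182 FPKM, and COL12A1 and COL14A1, which lie on the fibril surface, had 328 and 81.3 FPKM. COL11A1, best known from cartilage, had 203 FPKM.

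Among chains of the basement membrane zone, COL15A1 had 138 FPKM, COL4A1 32.3, COL4A2 20.1, COL7A1 5.01 and COL17A1 2.14 FPKM. No count was found for COL4A3, COL9A1, COL22A1 and COL23A1, and COL25A1 was silent.

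The machinery that folds, trims and crosslinks collagen was expressed for 29 of 33 genes (87.9% against 51.1% of all genes). SERPINH1, the collagen chaperone of the endoplasmic reticulum, stood at 1120, 1088 and 1094 FPKM. The prolyl hydroxylase subunits P4HB and P4HA2 had means of 524 and 309 FPKM, and the lysyl hydroxylases PLOD3, PLOD1 and PLOD2 had 99.8, 92.5 and 25.6 FPKM. LOX, which starts the crosslinks, stood at 463, 473 and 431 FPKM, ahead of LOXL1 at 249 and LOXL2 at 197 FPKM. The silent members were COLGALT2 and TLL1.

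Elastic fibres and microfibrils were represented by 20 of 21 genes (95.2% against 51.1% of all genes). ELN, the elastin precursor, stood at 509, 515 and 442 FPKM and FBN1, the main microfibril protein, at 343, 348 and 361 FPKM. FBLN1, FBLN2 and FBLN5 had 183, 158 and 88.1 FPKM, while FBN3 had no count. The elastic cartilage of the ear is rich in elastin, but ELN is made by dermal fibroblasts too.

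Of the matrix glycoproteins 23 of 34 were expressed (67.6% against 51.1% of all genes), led by FN1 at 3456, 3389 and 3127 FPKM. SPARC, THBS1 and TNC, which modulate how cells hold to the matrix, had means of 3305, 2876 and 1812 FPKM. CCN2 and CCN1, secreted proteins that respond to TGF-beta and to tension, had 767 and 294 FPKM. Among 33 proteoglycan and hyaluronan genes 21 were expressed (63.6%). BGN stood at 1905, 1867 and 1725 FPKM and FMOD at 1021, 989 and 975 FPKM. The hyaluronan synthases were low, with HAS3 at 1.72, HAS1 at 1.15 and HAS2 at 0.64 FPKM.

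Among 36 genes of matrix proteases and their inhibitors 23 were expressed (63.9% against 51.1% of all genes). TIMP1, an inhibitor of metalloproteinases, stood at 1974, 1921 and 1933 FPKM, and TIMP3 and TIMP2 had means of 532 and 339 FPKM. The gelatinase MMP2 stood at 765, 753 and 801 FPKM and its membrane-bound activator MMP14 at 251, 242 and 280 FPKM. By contrast, the collagenase MMP1 stood at 1.03 FPKM, MMP3 at 1.75 and MMP9 at 0.913, and MMP13 was silent. Cell surface receptors for these proteins included ITGB1 at 586, ITGA5 at 262, ITGB5 at 206, ITGA3 at 126 and ITGAV at 117 FPKM. The integrin subunits of leukocytes ITGAL, ITGB2 and ITGAM and the subunit ITGA4 were silent.

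Basement membrane genes were expressed for 20 of 21 (95.2% against 51.1% of all genes). HSPG2 (perlecan) had a mean of 216 FPKM, LAMB1 of 131, LAMB2 of 95.4, LAMC1 of 71.2, LAMA5 of 44 and LAMA4 of 31.4 FPKM. LAMA1 was silent. LAMA3 and LAMB3 had 2.66 and 7.23 FPKM, each highest in the third sample.

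Contractile genes were expressed for 37 of 39 (94.9% against 51.1% of all genes), with a median of 163 FPKM. Beside ACTA2, the actin-binding TAGLN stood at 1267, 1258 and 1091 FPKM, TPM1 at 1292, 1292 and 1303 FPKM and TPM2 at 615, 598 and 526 FPKM. The myosin chains MYL6, MYL9 and MYH9 had means of 1784, 270.0 and 639 FPKM, and CNN1, CALD1 and ACTG2 had 54.4, 201 and 168 FPKM. The ratio of ACTA2 to the housekeeping actin ACTB was 1.04, 1.01 and 0.818, lowest in the third sample. TAGLN, TPM2 and MYLK were also lowest there, with MYLK at 16, 15.9 and 11.9 FPKM.

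MYH11, the myosin of differentiated smooth muscle, stood at 0.14, 0.11 and 0.15 FPKM, and MYOCD, its coactivator, was silent. SRF, MRTFA and MRTFB, which drive actin genes in many cells, had 22.5, 17 and 7.94 FPKM. Of 26 sarcomere and skeletal muscle genes 1 was expressed (3.85% against 51.1% of all genes), DES at 2.72, 2.38 and 2.05 FPKM. MYOD1, MYOG, ACTA1, MYH1 and MYH2 had no count in any sample.

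Cell cycle genes were on throughout. All 30 S phase genes and all 32 G2 and M phase genes were expressed, and 22 of 23 genes of G1 cyclins and CDK inhibitors (95.7%). The share of all genes was 51.1%. The replication genes MCM7, RRM2, TYMS and PCNA had means of 99.6, 72.1, 69.7 and 56.3 FPKM. Among mitotic genes CKS2, UBE2C and KIF20A had 115, 110.3 and 79.9 FPKM, and TOP2A stood at 47.2, 50.4 and 39.5 FPKM. CCND1, the cyclin of growth factor response, stood at 175, 178 and 209 FPKM and exceeded CCND2 5.45-fold (SD 0.21, n = 3). Inhibitors of the cycle were present as well, with CDKN1A at 86.5, 85 and 74.8 FPKM and CDKN2A, which accumulates with passage, at 53.3, 53.5 and 58.4 FPKM. CDKN1B had 3.2 FPKM and CDKN1C lay between the classes at 0.207 FPKM.

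Histone genes gave 8 of 22 expressed (36.4% against 51.1% of all genes). The highest, H3-3B, H2AZ1, H3-3A and H2AX at 158, 131, 84.9 and 54.7 FPKM, are not confined to replication and have polyadenylated transcripts. Those tied to replication were low, from H2BC21 at 17.8 FPKM to H3C1 with no count. Such histone transcripts lack a poly(A) tail, and their near-identical copies can share reads, so their levels are uncertain. The source descriptions differ on whether poly(A) selection or rRNA removal was used, and its part in these values was not tested.

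**Figure D2:**
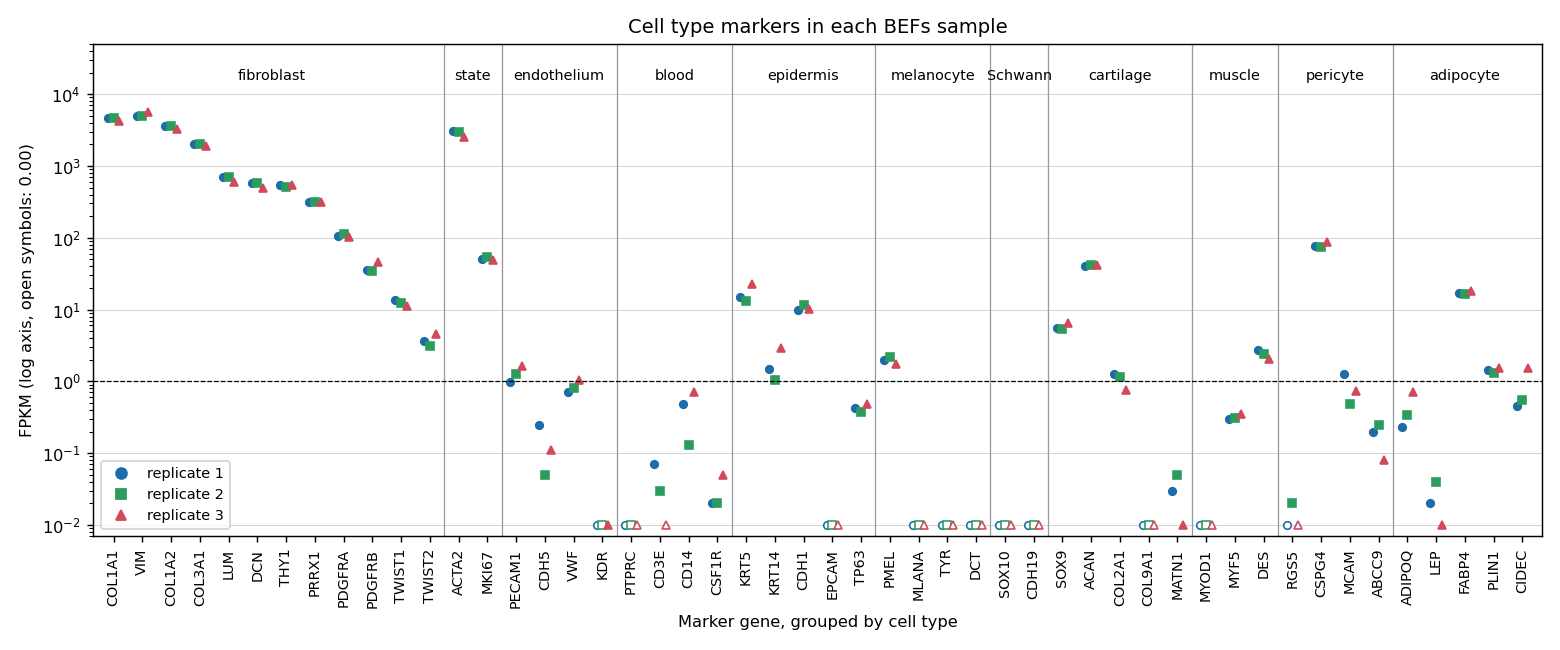
FPKM (log axis) of marker genes in each of the 3 BEFs samples, grouped by cell type. Each point is a sample, open symbols at the bottom are values of 0.00, and the dashed line is 1 FPKM. Fibroblast markers reach from 3.14 FPKM (TWIST2) to 5678 FPKM (VIM), while the plotted genes of blood and Schwann cells and 3 of the 4 plotted melanocyte genes lie below 1 FPKM.

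Markers of other cells of ear skin were read for the makeup of the culture. In bulk RNA a few cells of another type and a low level in all cells cannot be told apart. Of 14 blood cell genes 0 were expressed (against 51.1% of all genes) and 9 were silent (64.3% against 34.4%). PTPRC, the pan-leukocyte marker, had no count in any sample, and the list summed to 2.21, 2.62 and 3.23 FPKM. Endothelial genes gave 2 of 13 expressed (15.4%), ERG at 18.9, 18.9 and 20.5 FPKM and EGFL7 at 2.47, 2.84 and 1.72 FPKM. The defining endothelial genes CDH5 and KDR stood at 0.137 and 0.003 FPKM, and PECAM1 at 0.98, 1.26 and 1.63 FPKM.

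Melanocyte genes gave 2 of 8 expressed (25%), MITF at 3.79 and PMEL at 1.99 FPKM. MLANA, TYR, TYRP1, DCT and SOX10 had no count. Schwann cell and neuronal genes gave 4 of 15 (26.7%). They were led by S100B at 33.5, 34 and 31.2 FPKM and TUBB3 at 25.1, 23.1 and 22.2 FPKM, which other cells also express. SOX10, CDH19 and MBP had no count. Pericyte genes gave 4 of 10 expressed (40% against 51.1% of all genes) and 3 silent (30% against 34.4%). CSPG4 stood at 77.8, 75 and 87.5 FPKM and RGS5 was silent.

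Epidermal genes were present at a low level. KRT5, a keratin of basal keratinocytes, stood at 14.9, 13 and 23 FPKM and KRT14, its partner, at 1.5, 1.06 and 2.88 FPKM. CDH1, the epithelial cadherin, stood at 9.84, 11.5 and 10.1 FPKM. KRT8 had 5.81 FPKM, while its usual partner KRT18 had 0.097 FPKM. Of 20 genes 6 were expressed (30% against 51.1% of all genes) and 7 silent (35% against 34.4%). The list summed to 36, 35 and 51.2 FPKM. EPCAM, KRT1, IVL, DSG1 and LORICRIN had no count, and TP63 stood at 0.42, 0.37 and 0.49 FPKM.

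Because the ear is built on cartilage, its genes were read too. Of 16 genes 6 were expressed (37.5% against 51.1% of all genes) and 5 silent (31.2% against 34.4%). ACAN, the large proteoglycan of cartilage, stood at 40.9, 41.3 and 41.6 FPKM, HAPLN1, which ties it to hyaluronan, at 12.6, 11.8 and 11.5 FPKM, and SOX9, the regulator of chondrocytes, at 5.51, 5.35 and 6.54 FPKM. SOX5 and SOX6 had 3.41 and 4.03 FPKM. The defining collagen of cartilage was near the limit, with COL2A1 at 1.28, 1.15 and 0.75 FPKM. COL9A1 had no count, MATN1 and COL10A1 were silent and COMP stood at 0.097 FPKM. Bone and tendon genes gave 5 of 13 (38.5%), with SPP1 at 74.6 and MKX at 16 FPKM, while IBSP had no count.

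Positional genes were read from 3 lists. HOX genes, whose combinations mark position along the body axis, were at the low end of the table. Of the 39 members 4 were expressed (10.3% against 51.1% of all genes), 14 were silent (35.9% against 34.4%) and 21 lay between. HOXB7 (NCBI Gene 281820) stood at 4.36, 4.24 and 3.11 FPKM, HOXB6 at 2.78, 2.65 and 2.39 FPKM, HOXC6 at 1.33, 1.23 and 1.14 FPKM and HOXC8 at 1.19, 1.17 and 1.19 FPKM. Just outside the limit were HOXC10 at 1.64, 1.37 and 0.96 FPKM and HOXA2 at 1.16, 1.42 and 0.55 FPKM. The whole family took 0.00437% ± 0.00061 (SD, n = 3) of the summed FPKM, and its sum was 21.1, 20.2 and 16 FPKM, lowest in the third sample.

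By place in the clusters, the expressed members were all of paralogue groups 5 to 8, with 4 of 11. Groups 1 to 4 gave 0 of 12 expressed and 2 silent, and groups 9 to 13 gave 0 of 16 expressed and 10 silent. The summed levels were 4.95, 11.3 and 2.87 FPKM in that order. Clusters HOXB and HOXC held the 4 expressed members, 2 each, and HOXA and HOXD held 0 of 11 and 0 of 9. Placement and order rest in part on the transcript length that FPKM divides by. Summed over the samples, HOXC9 of group 9 had 355 counts and stood outside the limit at 0.82 FPKM. HOXC8, HOXB7 and HOXC6, called expressed, had fewer counts, at 179, 185 and 331. HOXB6 had 1142 counts, more than HOXB7. Both the number and the placement also changed with the limit. At a limit of 0.5 FPKM 12 were expressed, 4 of groups 1 to 4, 6 of groups 5 to 8 and 2 of groups 9 to 13, with members in all 4 clusters. At a limit of 2 FPKM 2 were expressed, HOXB6 and HOXB7. Without the third sample there were 6, with HOXA2 and HOXC10 added.

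**Figure D3:**
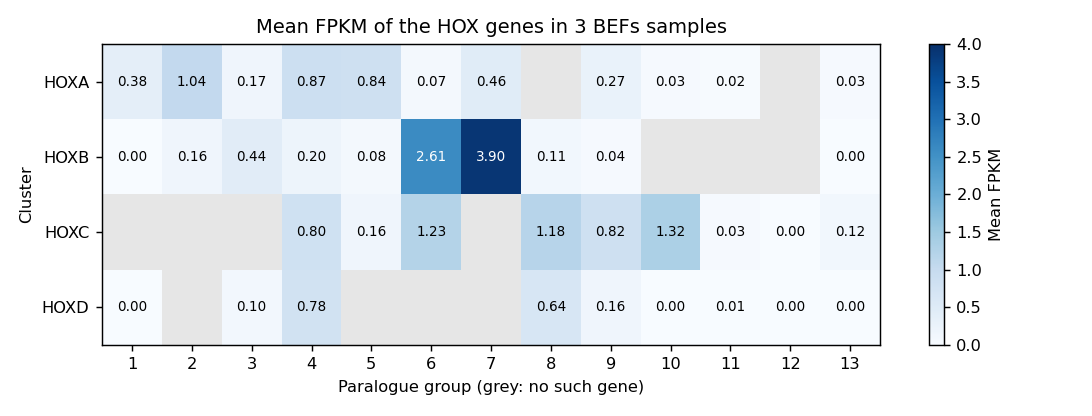
Mean FPKM of each of the 39 HOX genes over the 3 BEFs samples, by cluster (rows) and paralogue group (columns), on a colour scale from 0 to 4 FPKM; grey cells have no gene. HOXB7 at 3.90 and HOXB6 at 2.61 FPKM are highest, and most of groups 9 to 13 lie near 0.

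Genes that pattern the head and the neural crest were expressed for 24 of 48 (50% against 51.1% of all genes). Silent were 9 (18.8% against 34.4%). PRRX2, partner of PRRX1 in facial and limb mesenchyme, stood at 73.4, 72.5 and 73.5 FPKM and MSX1 at 31.9, 30.4 and 27.6 FPKM. PAX3, a regulator of neural crest and muscle precursors, stood at 5.58, 5.32 and 5.25 FPKM, and BARX1, a gene of facial mesenchyme, had 2.07 FPKM. DLX genes, which pattern the pharyngeal arches, were low. DLX5 was expressed at 2.5 FPKM, DLX3 reached 1.11 FPKM, and DLX6, DLX2, DLX1 and DLX4 lay between 0.413 and 0.673 FPKM. GSC, LHX8 and BARX2 stood at 0.00 FPKM in each sample.

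In the list of T-box, limb and trunk genes 22 of 49 were expressed (44.9% against 51.1% of all genes). Silent were 18 (36.7% against 34.4%). IRX3 had 22.7 FPKM, MEOX2 13.4, TBX15 10.2 and TBX18 6.71 FPKM. MEIS1 and PBX2, cofactors of HOX proteins, had 19.1 and 18.9 FPKM, far above any HOX gene. The forelimb gene TBX5 and the hindlimb gene TBX4 had no count in any sample, and PITX1, a hindlimb and jaw gene, stood at 2.19, 1.44 and 1.53 FPKM. EN1, a gene of ventral ectoderm and of some dermal fibroblasts, lay between the classes at 0.26 FPKM.

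Adipocyte genes ranged from abundant to uncounted. Of 32 genes of mature adipocytes 16 were expressed (50%), 9 were silent (28.1%) and 7 lay between. The shares of all genes were 51.1% expressed and 34.4% silent. The median was 1.14 FPKM, and the list held 0.191% ± 0.003 (SD, n = 3) of the summed FPKM. The caveola genes CAV1 and CAVIN1, at 305 and 285 FPKM, made up most of it, and fibroblasts are known to use them too. RBP4, a retinol carrier of liver and fat, stood at 101, 93.6 and 97.2 FPKM. FABP4, the fatty acid binding protein of adipocytes, stood at 17.2, 16.4 and 18.2 FPKM, and CFD (adipsin) at 4.79, 5.59 and 4.8 FPKM. PLIN1, the droplet coat of adipocytes, and LIPE, the hormone-sensitive lipase, were just over the limit, PLIN1 at 1.45, 1.31 and 1.55 FPKM and LIPE at 1.53, 1.36 and 1.31 FPKM.

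Just under it were LPL, which releases fatty acids from lipoproteins, at 0.91, 0.81 and 0.91 FPKM and the insulin-responsive glucose transporter SLC2A4 at 0.66, 0.72 and 0.46 FPKM. CIDEC, which enlarges droplets, stood at 0.46, 0.55 and 1.54 FPKM. ADIPOQ (NCBI Gene 282865), the hormone adiponectin, stood at 0.23, 0.34 and 0.7 FPKM, from 13, 21 and 44 counts. Both were highest in the third sample. LEP, the hormone leptin, had 1, 3 and 1 counts, and CD36, a fatty acid transporter, had 0, 2 and 0. RETN, PCK1, THRSP and UCP1 had no count.

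**Figure D4:**
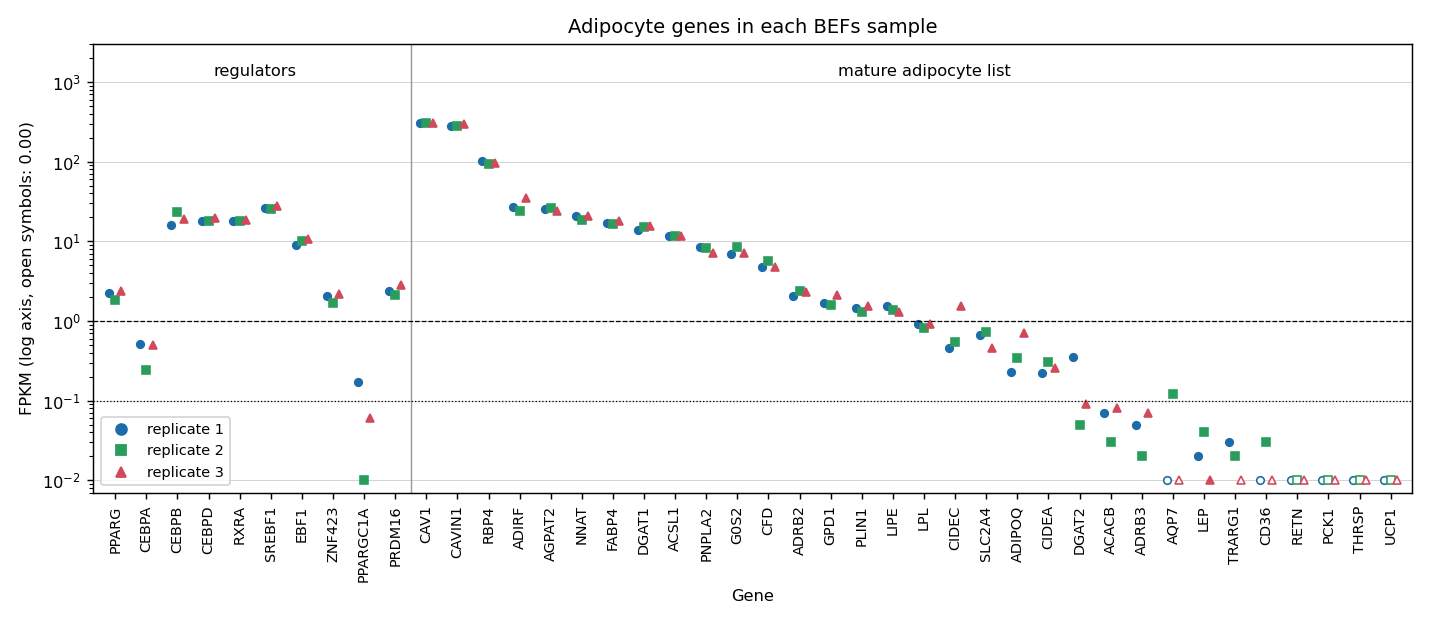
FPKM (log axis) of 10 regulators and the 32 genes of the mature adipocyte list in each of the 3 BEFs samples. Each point is a sample, open symbols are values of 0.00, the dashed line is 1 FPKM and the dotted line 0.1 FPKM. CEBPB and CEBPD lie near 19 FPKM, PPARG near 2 and CEBPA below 1, and the list falls from CAV1 at 305 FPKM to UCP1 at 0.

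Of 36 transcription factors and coregulators of adipogenesis 29 were expressed (80.6% against 51.1% of all genes), with a median of 9.79 FPKM. The early factors CEBPB and CEBPD stood at 16.1, 23.1 and 18.9 FPKM and at 18.1, 18 and 19.6 FPKM. PPARG (NCBI Gene 281993), the master regulator, stood at 2.23, 1.86 and 2.41 FPKM. CEBPA (NCBI Gene 281677), its partner, stood at 0.52, 0.24 and 0.5 FPKM, below the limit in each sample. PPARD exceeded PPARG 4.43-fold (SD 0.41, n = 3). RXRA, which binds DNA together with PPARG, had 18.2 FPKM, and SREBF1, a driver of lipid synthesis, had 26.3 FPKM. The preadipocyte factors EBF1 and ZNF423 had 9.96 and 1.96 FPKM, EBF2 was silent and PPARGC1A had 0.08 FPKM. KLF6 and KLF4 led the list at 86 and 38.6 FPKM.

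Brakes on adipogenesis were expressed for 21 of 30 (70% against 51.1% of all genes). CTNNB1 led at 200.4 FPKM, with the TAZ gene WWTR1 at 55.5, TGFB1 at 37.1 and YAP1 at 31.3 FPKM. DLK1, the preadipocyte brake that is lost on differentiation, had no count, and WNT10B stood at 0.54 FPKM. Preadipocyte markers were expressed for 17 of 23 (73.9%), most of them shared with fibroblasts, such as THY1 and PDGFRA. CD34 had 3.6 FPKM.

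Among droplet coats, PLIN2, found in most cells, stood at 119, 117 and 122 FPKM and PLIN3 at 42.8, 39.4 and 44.4 FPKM, while PLIN4 stood at 0.123 FPKM and PLIN5 had no count. Lipogenic genes were expressed for 21 of 27 (77.8% against 51.1% of all genes). FASN stood at 45, 44.5 and 56.1 FPKM, SCD at 32.4, 32.2 and 37.4 FPKM and ACLY at 38.4, 41 and 45.4 FPKM. All 3 were highest in the third sample. In triglyceride assembly 15 of 23 were expressed (65.2%). DGAT1, which makes triglyceride, had 14.8 FPKM and DGAT2, the other enzyme of that step, stood at 0.35, 0.05 and 0.09 FPKM. The mitochondrial PCK2 had 85.5 FPKM, whereas its cytosolic relative PCK1 had no count. GPD1, which supplies glycerol phosphate, stood at 1.69, 1.58 and 2.14 FPKM. For fatty acid uptake 14 of 26 were expressed, a share near that of all genes (51.1%), with FABP5 at 0.782 of FABP4 (SD 0.078, n = 3).

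Thermogenic genes were the most silent of the fat lists. Of 22 genes 5 were expressed (22.7% against 51.1% of all genes) and 13 silent (59.1% against 34.4%). TMEM26, named as a beige fat marker, was an exception at 41.5, 42.2 and 42.5 FPKM. PRDM16, a regulator of brown fat, stood at 2.37, 2.1 and 2.81 FPKM, and DIO2, ADRB3, ELOVL3 and UCP1 were silent.

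Genes for the targets of the later treatment were read before it began. For RepSox, TGFBR1 stood at 20.8, 22.2 and 20.1 FPKM and its partner TGFBR2 at 16, 16.5 and 15.5 FPKM. SMAD2, SMAD3 and SMAD4, which carry the signal, had 26.9, 31.3 and 38.2 FPKM. ACVR1B, a related receptor kinase, had 3.07 FPKM and ACVR1C was silent. Of this list 18 of 20 were expressed (90% against 51.1% of all genes). The TGF-beta responsive gene CCN2 was its highest member.

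For VPA the histone deacetylase family was read as a whole, and all 11 genes were expressed (100% against 51.1% of all genes). Which of them VPA acts on was not examined. HDAC1 led at 70.2, 70.0 and 71.0 FPKM and exceeded HDAC2 2.33-fold (SD 0.12, n = 3). HDAC5, HDAC3 and HDAC8 had 51.6, 36.2 and 20.9 FPKM, and HDAC4 was lowest at 2.84 FPKM.

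For TTNPB, RARG and RARA were expressed, RARG at 50.2, 48.2 and 53.3 FPKM and RARA at 38.1, 36.2 and 38.1 FPKM. RARB, which retinoic acid is known to induce, stood at 0.16, 0.33 and 0.2 FPKM. The partners RXRA and RXRB had 18.2 and 17.9 FPKM and RXRG had no count. Of the enzymes that break down retinoic acid, CYP26B1 stood at 2.96, 3.42 and 6.62 FPKM, and CYP26A1 and CYP26C1 had no count. CRABP2 and CRABP1, which bind it in the cytosol, had 21.8 and 11.1 FPKM. Of the enzymes that make it, ALDH1A3 and ALDH1A1 lay between the classes at 0.857 and 0.343 FPKM and ALDH1A2 was silent. For the maintenance medium, INSR stood at 3.63, 3.54 and 4.34 FPKM and IGF1R at 53, 52.1 and 53.9 FPKM. Of that list 12 of 13 genes were expressed (92.3% against 51.1% of all genes).

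Secreted signals were expressed for 32 of 51 genes (62.7% against 51.1% of all genes). GREM1, an antagonist of BMPs, stood at 528, 527 and 575 FPKM, and IGFBP4, FSTL1 and IGFBP6 had 378, 327 and 168 FPKM. FGF7 and VEGFA had 74.6 and 59.5 FPKM. IGF1 stood at 0.02, 0.13 and 0.11 FPKM and IGF2 at 1.4 FPKM, while EGF was silent. Inflammatory genes were expressed for 20 of 29 (69%). The complement proteases C1S and C1R led at 113 and 106 FPKM, with CXCL12 at 104 FPKM. CCL2 stood at 19.4, 18.1 and 28.3 FPKM and IL6 at 3.29, 3.25 and 5.23 FPKM, while IL1B had no count. Of 11 pluripotency genes 2 were expressed (18.2%), KLF4 and MYC, which are not limited to stem cells. POU5F1 stood at 0.55, 0.58 and 0.84 FPKM and NANOG, SALL4 and LIN28B were silent.

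The spread between the samples was small. Of 10361 expressed genes with a mean count of at least 100, 8787 (84.8%) lay within 1.25-fold from the lowest to the highest sample, and the median coefficient of variation of FPKM was 5.97%. The common biological coefficient of variation of edgeR was 6.68% over 12613 genes. The third sample stood somewhat apart. Samples 1 and 2 differed by more than 1.5-fold in 83 of 10999 expressed genes, samples 1 and 3 in 216 and samples 2 and 3 in 203. The median absolute log2 ratio was 0.076, 0.11 and 0.12 in that order. Without the third sample the coefficient was 3.28%.

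The 10 most variable genes beyond counting noise were all highest in the third sample. FOSB stood at 2.9, 3.24 and 9.77 FPKM, NR4A1 at 7.97, 8.52 and 25.8 FPKM and HES1 at 6.86, 7.11 and 18.6 FPKM. FOSB and NR4A1 are immediate early genes, transcription factors that cells switch on within minutes of a stimulus, and HES1 is a target of Notch. The others were TRIB1, NR4A2, NOCT, CSRNP1, CXCL5, TNXB and CRACR2A. Among the first 30 genes, 28 were highest there. A list of 24 immediate early genes was then drawn up after these values were seen. Of its 21 expressed members 15 were highest in the third sample, with a median log2 of 0.33 over the mean of the others. The list holds 5 of the 10 most variable genes, which were known to be highest there. Of its other 16 expressed members 10 were highest in the third sample, but ATF3 and EGR1 of these are among the first 30 genes above. These counts thus restate in part the values that prompted the list. EGR1 stood at 57.5, 56.4 and 99.9 FPKM, FOS at 32.7, 34.7 and 50.7 FPKM and DUSP1 at 44.1, 41.3 and 66.5 FPKM, but JUNB at 69.1, 65.6 and 66.2 FPKM.

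G2 and M phase genes went the other way. Of the 32, 31 were lowest in the third sample and 0 were highest there, with a median log2 of -0.19. Of all 10999 expressed genes 4486 were lowest in that sample and 4110 highest, with a median of -0.01. CCNB1 stood at 63, 61.9 and 52.7 FPKM, CDK1 at 22.6, 23.8 and 17 FPKM and NUSAP1 at 24.3, 27 and 19.5 FPKM. S phase genes did not share this, with 12 of 30 lowest there and a median of -0.02. Of the expressed adipogenic regulators 22 of 29 were highest in the third sample (median log2 0.15), of the lipogenic genes 16 of 21 (0.13) and of the epidermal genes 5 of 6 (0.74). The brakes on adipogenesis were likewise highest there for 13 of 21 (0.1), genes of inflammation for 14 of 20 (0.08) and matrix proteases and inhibitors for 14 of 23 (0.08). Collagen chains were lowest there for 14 of 22 (-0.11). These shifts are of 1 sample and were not tested.

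**Figure D5:**
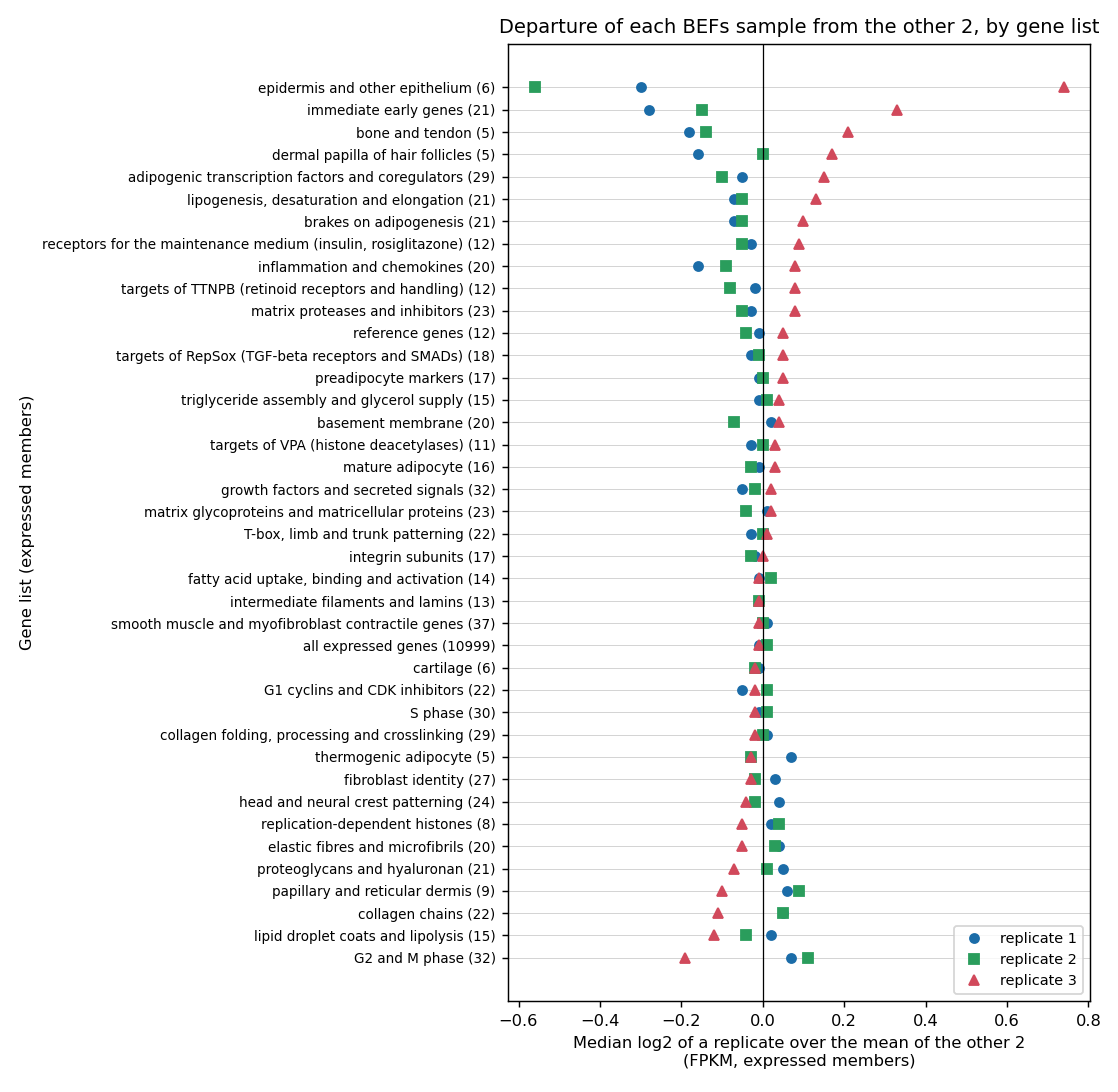
For each gene list with at least 5 expressed members (their number in parentheses), the median over those members of the log2 ratio of each BEFs sample to the mean of the other 2. Among the plotted lists the third sample lies farthest from 0 for the epidermal list (0.74) and the immediate early list (0.33) and lowest for the G2 and M phase list (-0.19), while all expressed genes lie at -0.01 to 0.01.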

How the data were processed

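RNA sequencing of BEFs on day 0 gave 3 samples, grouped by their labels. The table deposited by the authors holds expected counts, estimated reads per gene that are not normalized, and FPKM values that the authors scaled to length and library size. The submitters' processing notes list RSEM, StringTie 1.3.1, HISAT2 2.2.4 and fastp 0.18.0, with no roles. In the methods of the paper, TopHat and HTSeq stand in their place, and oligo(dT) selection where the labels name rRNA removal. The genome build is not given in the sources used here. The files' symbols were replaced by those of RefSeq (ARS-UCD2.0) through the NCBI Gene ID for 20582 of 21039 genes, and 473 assembled loci carry none. No coordinates or sequences were used. A few genes of the lists are not reported here.

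Classes and shares were computed from FPKM with numpy 2.4.6 and pandas 2.3.3 in Python 3.11.15, and the spread from rounded counts with edgeR 4.0.16 in R 4.3.3 (an intercept only, TMM, filterByExpr with a minimum count of 10). The scripts were tested on simulated data. Chi-square per degree of freedom between samples was 2.43, 7.59 and 8.93, so no pair differed as little as counting noise and all 3 were kept. Named genes are the 4 markers, the 25 most abundant genes, for each of 46 lists the 10 highest and the first 8 members, all HOX, adipocyte and compound-target genes, and the 10 most variable genes with a mean count of at least 100. Some genes of low level were named beside these after their values were seen. The members and lists were chosen with earlier results of these data known. Alternatives were other limits, TPM, counts, the mean in place of every sample, other scalings and each sample left out. Near-identical copies such as those of B2M, TUBA1B, ACTG1 and the histones may share reads.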

Additional observations from a re-analysis of the deposited data

How the results depend on the processing

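The number of expressed genes ranged from 9999 to 12633 over all alternatives and that of silent genes from 6591 to 8222, each within 1.5-fold of 10999 and 7399. Expressed mature adipocyte genes ranged from 13 to 21 against 16, fibroblast identity genes from 27 to 29, and all 32 G2 and M phase genes were expressed under each alternative. HOX genes depended on the limit. From 4 expressed they went to 12 with limits of 0.5 and 0.2 FPKM, 2 with limits of 2 and 0.05 FPKM, 12 on TPM and 16 with a limit of 10 counts, and from 14 silent to 9 with limits of 2 and 0.05 FPKM and 9 on TPM. TPM values are larger than FPKM here, so the same limit is laxer. The first 10 genes held 11.8% of counts, 8.59% of the FPKM of expressed genes and 8.38% without mitochondrial genes and assembled loci, and the first 100 held 29.3% of counts and 33% without those genes. The coefficient of variation of edgeR was 6.7% with total-count scaling and 6.73% without a filter, and 3.28% to 8.26% with a sample left out, lowest without replicate 3. No paired analysis was possible because there is 1 group of samples and no test. Genes with few counts, such as LEP, ADIPOQ and most HOX genes, are limited by depth.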

Other observations

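The genes commonly used as references were all expressed, 12 of 12. ACTB stood at 2931, 2932 and 3064 FPKM and GAPDH at 2458, 2410 and 2519 FPKM, while TBP was far lower, with a mean of 7.28 FPKM. SDHA stood at 104, 102 and 119 FPKM, highest in the third sample.

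Loci assembled from the reads, with no NCBI Gene ID, were expressed for 191 of 473. The highest had a mean of 296 FPKM, at rank 219 of the table, and no symbol.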
